A study of Homo sapiens with 16 samples.

Results

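The 10 genes described here belong to the Hippo pathway or are transcribed under its control. They were chosen by symbol, from 26485 genes in the total RNA tables and 13804 in at least 1 footprint table. Earlier results of these data were known when they were chosen, so their share of calls beside that of all genes is a description only. They comprise the coactivators YAP1 and WWTR1 (the gene of TAZ), their DNA-binding partner TEAD1, the kinase gene LATS2, the LIM-domain scaffold gene AJUBA, and 5 genes known as YAP and TAZ targets, CYR61, CTGF, ANKRD1, AMOTL2 and AXL. CYR61 and CTGF are now named CCN1 and CCN2. All 10 genes had enough counts to be tested in both assays.

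The assays were sequencing of ribosome-protected fragments (RPF, or footprints, the stretches of mRNA that a ribosome covers) and of total RNA, both in MDA-MB-231, a line from a human breast cancer that lacks hormone receptors, which the labels also describe as a xenograft cell line. Double-modulation cells carried CRISPRi, a repressor directed to a gene by a guide RNA, against tRNA-Ile-GAU and a construct for tRNA-Ile-UAU. Knockdown cells carried the tRNA-Ile-GAU guide with a control construct, overexpression cells a guide against eGFP with the tRNA-Ile-UAU construct, and control cells the eGFP guide with the control construct. All 4 conditions therefore carried CRISPRi and a construct, grew in serum-containing medium and were labelled as untreated, and each had 2 libraries per assay, 16 in all. Nothing in the labels says whether the replicates came from separate cultures, so the p-values measure the spread between these libraries, which may be technical. The edgeR test used below takes each gene's spread partly, and in footprints mostly, from all genes together. A small p-value from it therefore does not rest on that gene's own libraries alone.

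In the Hippo pathway, the kinases MST1 and MST2 activate LATS1 and LATS2, which phosphorylate YAP and TAZ and so keep them in the cytoplasm or mark them for degradation. Unphosphorylated YAP and TAZ enter the nucleus and, bound to TEAD proteins, activate transcription of genes such as CYR61, CTGF and ANKRD1. The pathway responds to cell density, cell shape and serum, and much of its control is exerted on proteins, which neither assay measured.

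TEAD proteins bind the sequence GGAATG, and the promoters of CTGF and ANKRD1 are printed because both genes are textbook TEAD targets and both had lower footprint levels with the tRNA-Ile-GAU guide. The 250 bases before the annotated start are given 5′ to 3′ on the gene's strand, with GGAATG in capitals, from RefSeq on GRCh38.p14. The CTGF window is chr6:131951373-131951622 and the ANKRD1 window chr10:90921088-90921337, both on the minus strand.
CTGF: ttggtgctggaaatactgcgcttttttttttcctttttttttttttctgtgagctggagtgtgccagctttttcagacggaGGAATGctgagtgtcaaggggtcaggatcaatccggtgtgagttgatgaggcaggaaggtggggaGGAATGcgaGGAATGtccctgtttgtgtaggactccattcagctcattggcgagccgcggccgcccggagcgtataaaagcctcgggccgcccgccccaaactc
ANKRD1: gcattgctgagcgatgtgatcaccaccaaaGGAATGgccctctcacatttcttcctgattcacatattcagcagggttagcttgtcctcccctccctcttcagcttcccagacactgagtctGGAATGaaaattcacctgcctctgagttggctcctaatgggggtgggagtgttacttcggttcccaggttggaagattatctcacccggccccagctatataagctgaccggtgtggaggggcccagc
The CTGF window held 3 copies, beginning 169, 104 and 95 bases before the start, and the ANKRD1 window held 2, at 220 and 128 bases. Of 35116 promoter windows of this length in the RefSeq table, 11.9% held GGAATG or its complement CATTCC at least once, 0.928% at least 2 times and 28 windows, or 0.0797%, at least 3 times. Among the 12 windows of the 8 members found in the table, those of YAP1, AMOTL2, AXL and AJUBA held 1 copy each in 1 window, and those of WWTR1 and LATS2 held none of these letters. A match describes the sequence and is not evidence of binding.

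Counts on genes ran from 639320 to 938909 per footprint library with the tRNA-Ile-GAU guide and from 358340 to 607919 with the eGFP guide, so depth moved with the guide. Total RNA libraries had 2512247 to 5446599 counts. The 5 mesenchymal or basal markers that fit MDA-MB-231, VIM among them, summed to 17593 to 18883 CPM (a gene's counts relative to the library total, on the usual scale) of footprints with the tRNA-Ile-GAU guide and 17768 to 19115 CPM with the eGFP guide. VIM made up most of that sum, and CAV1, another of the 5, was lower in footprints, at 896 to 1069 CPM with the tRNA-Ile-GAU guide against 1262 to 1323 CPM with the eGFP guide. CAV1 lies on chromosome 7, and its total RNA overlapped, at 232 to 259 CPM and 254 to 353 CPM. Luminal and epithelial markers, 4 of 8 of which averaged at least 1 CPM, summed to 247 to 289 CPM and 263 to 314 CPM of footprints, with ESR1 at 0. Most of that was KRT8, with means of 210 and 214 CPM. Markers of immune, endothelial and fibroblast cells, 4 of 8 at 1 CPM or more, summed to 150.2 to 195 CPM and 135 to 191 CPM of footprints, with DCN at 0. Most of that was CD68, with means of 153 and 145 CPM, while in total RNA CD68 averaged 16.6 and 10.5 CPM.

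The first question was whether footprints of these genes differed between cells with the tRNA-Ile-GAU guide and cells with the eGFP guide, whichever construct they carried. Footprints of CYR61, CTGF and ANKRD1 fell with the tRNA-Ile-GAU guide, to between 0.664 and 0.701 of the level with the eGFP guide. The other 7 genes did not pass the test, among them the coactivators themselves. The call was an adjusted p under 0.05 by edgeR's quasi-likelihood test with Benjamini-Hochberg adjustment over 8143 genes. Of those genes 2.68% were called, 1.99% as lower and 0.688% as higher, against 3 of the 10 members lower and 0 higher. At an unadjusted p under 0.05 there were 5 members, against 13.4% of genes. The median log2 fold change was -0.04 over the members and 0.01 over all genes tested. Over 351 genes of chromosome 7 it was -0.38, against 0.02 over 7329 genes placed on other chromosomes. The cells with the 2 guides thus differed over a whole chromosome too. Whether the differences of the members came from the knockdown or from another difference between these cells was not tested.

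CYR61 encodes a secreted matricellular protein and lies at chr1:85580761-85583950. Its footprints stood at 1342 and 1251 CPM in the double modulation, 1011 and 851 CPM in knockdown, 1624 and 2085 CPM in overexpression, and 1337 and 1555 CPM in control cells. Knockdown was the lowest condition and overexpression the highest, and the 4 libraries of the tRNA-Ile-GAU guide overlapped those of the eGFP guide only where a double-modulation library and a control library met. With the guides pooled over constructs, the log2 fold change was -0.59 ± 0.08 (standard error), or 1.51 times lower, with an adjusted p of 6.4e-10 by edgeR's quasi-likelihood test.

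CTGF, at chr6:131948176-131951372, encodes a secreted protein of the same CCN family. Its footprints were 703 and 709 CPM in the double modulation, 574 and 497 CPM in knockdown, 882 and 1155 CPM in overexpression, and 666 and 804 CPM in control cells. The order of conditions was that of CYR61, with the double modulation and control overlapping. The log2 fold change for the guide was -0.51 ± 0.08, or 1.43 times lower, with an adjusted p of 1.39e-06 by edgeR's quasi-likelihood test. For CYR61 and CTGF the call held under all 13 other settings tried, thinning to the shallowest library among them. In bulk libraries a lower level in every cell and fewer cells with a high level cannot be told apart.

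ANKRD1, at chr10:90912096-90921087, encodes a cardiac and muscle ankyrin repeat protein that acts in the nucleus and the sarcomere, and it is widely used as a readout of YAP activity. Its footprints were 471 and 488 CPM in the double modulation, 482 and 498 CPM in knockdown, 561 and 1049 CPM in overexpression, and 656 and 563 CPM in control cells. All 4 libraries with the tRNA-Ile-GAU guide lay between 471 and 498 CPM, below all 4 with the eGFP guide, an order that 3.94% of all genes tested had. The log2 fold change was -0.56 ± 0.09, or 1.48 times lower, with an adjusted p of 1.2e-06 by edgeR's quasi-likelihood test. That call depended on 1 library: without replicate 2 of overexpression the log2 fold change was -0.29 and the adjusted p 0.181, and DESeq2 on all libraries gave an adjusted p of 0.407.

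An exact two-sided permutation test over libraries, 4 against 4, cannot give a p below 0.0286. ANKRD1 reached that value in footprints and in total RNA, and adjusted over the 6 tests made it was 0.0857 in both. For CYR61 the exact permutation p was 0.0571 in footprints and 0.143 in total RNA, and for CTGF 0.0857 and 0.286. This test has no term for the construct. It was run only on CYR61, CTGF and ANKRD1, because they had been called for the guide in these same footprint libraries. Its footprint values are therefore not an independent check, and the adjustment over 6 tests leaves out the members not called.

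**Figure D1:**
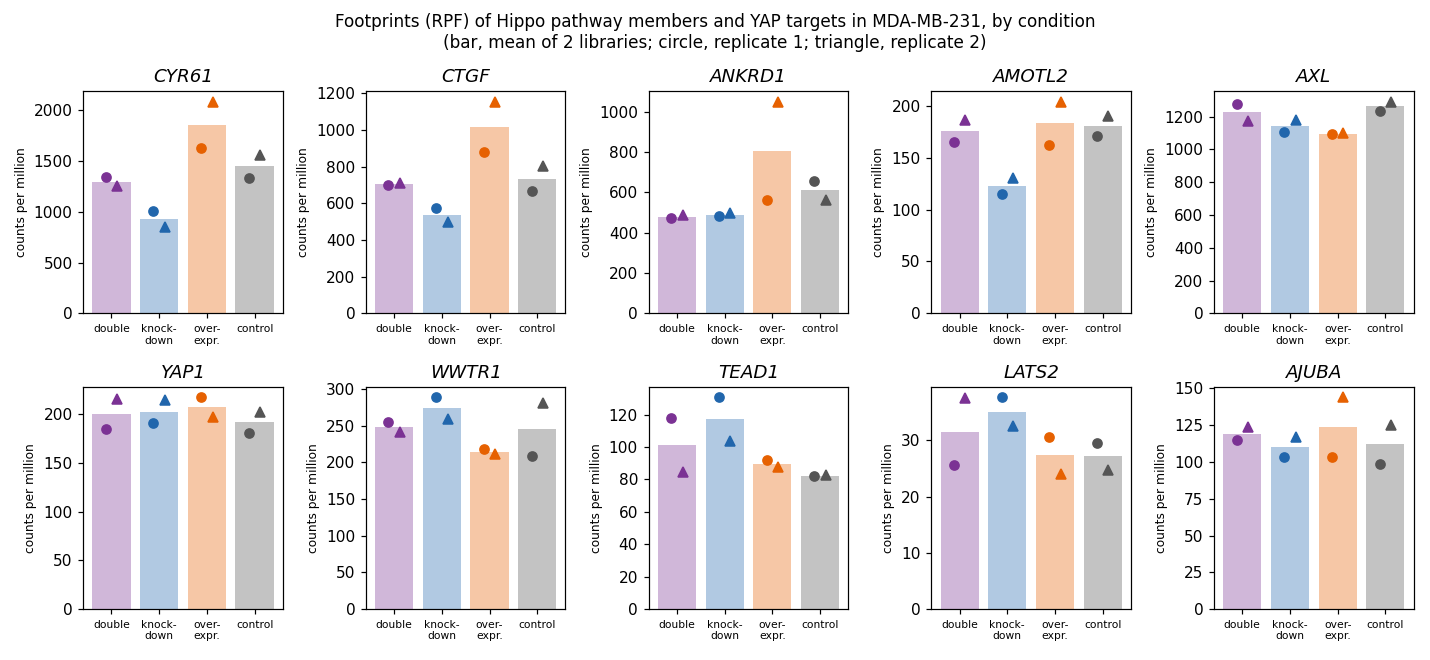
Footprint levels in CPM (vertical axes, each from 0) of the 10 genes in the 4 conditions, with bars at the mean of 2 libraries, circles for replicate 1 and triangles for replicate 2. CYR61 and CTGF are lowest in knockdown and highest in overexpression, where CYR61 stood at 1624 and 2085 CPM. ANKRD1 has 1 overexpression library at 1049 CPM, far above the other 7.

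The remaining targets were AMOTL2 and AXL. AMOTL2 encodes an angiomotin-like protein that binds YAP and restrains it, so it is both a target and an inhibitor. It had footprint levels of 165 and 186 CPM in the double modulation, 115 and 130.5 CPM in knockdown, 162 and 204 CPM in overexpression, and 171 and 189.8 CPM in control cells. Only knockdown stood apart from the other 3 conditions, and the guide's log2 fold change of -0.34 ± 0.12 had an adjusted p of 0.111 by edgeR's quasi-likelihood test. AXL encodes a receptor tyrosine kinase, and its footprints were 1279 and 1176 CPM in the double modulation, 1104 and 1183 CPM in knockdown, 1094 and 1101 CPM in overexpression, and 1235 and 1292 CPM in control cells. Its log2 fold change for the guide was 0.00 ± 0.07, with a 95% interval from -0.15 to 0.15.

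Of the coactivators, YAP1 had footprint levels of 185 and 216 CPM in the double modulation, 191 and 215 CPM in knockdown, 218 and 197 CPM in overexpression, and 181 and 203 CPM in control cells. All 4 conditions overlapped, and the guide's log2 fold change was 0.00 ± 0.11 with a 95% interval from -0.21 to 0.22. WWTR1 had 255 and 241 CPM in the double modulation, 289 and 259 CPM in knockdown, 218 and 211 CPM in overexpression, and 209 and 281 CPM in control cells. The wide gap between the control libraries left the guides overlapping, and the log2 fold change of 0.18 ± 0.10 had an adjusted p of 0.477 by edgeR's quasi-likelihood test. TEAD1, the transcription factor, had 118 and 84.5 CPM in the double modulation, 131 and 104 CPM in knockdown, 92.1 and 87.4 CPM in overexpression, and 82.2 and 82.5 CPM in control cells. Both knockdown libraries stood above all 4 with the eGFP guide, while the double modulation spanned them, and the log2 fold change of 0.35 ± 0.14 had an adjusted p of 0.224 by the same test.

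LATS2, the kinase that inhibits YAP and TAZ, was the least covered member, with 11 to 32 footprint reads per library. Its levels were 25.6 and 37.5 CPM in the double modulation, 37.7 and 32.6 CPM in knockdown, 30.7 and 24.0 CPM in overexpression, and 29.6 and 24.8 CPM in control cells. No difference was detected, and the 95% interval of the log2 fold change ran from -0.21 to 0.76. AJUBA encodes a scaffold that binds LATS kinases and restrains them, and its footprints were 115 and 124 CPM in the double modulation, 104 and 117 CPM in knockdown, 103 and 144 CPM in overexpression, and 98.7 and 125 CPM in control cells. The conditions overlapped, and the guide's log2 fold change was -0.07 ± 0.13.

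Total RNA from the same 4 conditions was set beside the footprint differences. Of the 10 members, 0 were called for the guide in total RNA by edgeR's quasi-likelihood test, where 1.08% of 11720 genes were. At an unadjusted p under 0.05 there were 4 members and 10.5% of genes, and DESeq2 called 1 member. This result depended on the double-modulation libraries, whose replicate differences over all genes had a central 95% from -1.85 to 0.62 on the log2 scale. With either of them left out, that condition kept 1 library, so its replicate difference no longer entered the spread. More genes were then called, and these calls are not read as RNA changes. Fewer were called with any 1 of the other 6 left out. Over 12 alternatives the log2 fold change ran from -0.56 to -0.33 for CYR61, from -0.45 to -0.13 for CTGF and from -0.76 to -0.37 for ANKRD1. The estimates of CYR61, CTGF and ANKRD1 were lower with the tRNA-Ile-GAU guide in this assay too, with wider errors. The biological coefficient of variation was 14.3% in total RNA and 6.71% in footprints. Spread was also shared less between genes in total RNA, so the same ratio of estimate to error gave a larger p-value there.

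CYR61 had total RNA levels of 436 and 398 CPM in the double modulation, 305 and 289.8 CPM in knockdown, 495 and 701 CPM in overexpression, and 352 and 424 CPM in control cells. Knockdown was again lowest and overexpression highest, and the guide's log2 fold change was -0.46 ± 0.11 with an adjusted p of 0.0964 by edgeR's quasi-likelihood test. CTGF had 174 and 139 CPM in the double modulation, 116 and 113 CPM in knockdown, 149.9 and 240.0 CPM in overexpression, and 135 and 147 CPM in control cells. Its estimate of -0.32 ± 0.13 had an adjusted p of 0.432 by that test, and the 2 overexpression libraries lay far apart. ANKRD1 had 371 and 403 CPM in the double modulation, 429 and 438 CPM in knockdown, 482 and 862 CPM in overexpression, and 562 and 571 CPM in control cells. As in footprints, all 4 libraries with the tRNA-Ile-GAU guide were below all 4 with the eGFP guide, an order held by 5.33% of genes, and the estimate of -0.59 ± 0.15 had an adjusted p of 0.111 by edgeR's quasi-likelihood test.

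WWTR1 total RNA was 284 and 286 CPM in the double modulation, 269 and 256 CPM in knockdown, 243 and 238 CPM in overexpression, and 232 and 241 CPM in control cells. The guides did not overlap, with the tRNA-Ile-GAU guide higher, an order that 3.37% of genes had, but the log2 fold change of 0.19 ± 0.07 had an adjusted p of 0.311 by edgeR's quasi-likelihood test. The antisense gene WWTR1-AS1 had at most 4 counts in any total RNA library, and whether counting used the strand is not given in the sources used here. AMOTL2 had 91.2 and 75.9 CPM in the double modulation, 74.4 and 61.8 CPM in knockdown, 77.3 and 119.7 CPM in overexpression, and 82.0 and 78.8 CPM in control cells, so that the guides overlapped. YAP1 ranged over 675 to 799 CPM with the tRNA-Ile-GAU guide and 671 to 698 CPM with the eGFP guide, TEAD1 over 747 to 875 CPM and 749.8 to 833 CPM, and AXL over 908 to 1005 CPM and 846 to 933 CPM. LATS2 ranged over 51.7 to 60.5 CPM with the tRNA-Ile-GAU guide and 54.1 to 63.3 CPM with the eGFP guide, and AJUBA over 79.4 to 113 CPM and 72.3 to 95.7 CPM. None of these 5 genes separated the guides.

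**Figure D2:**
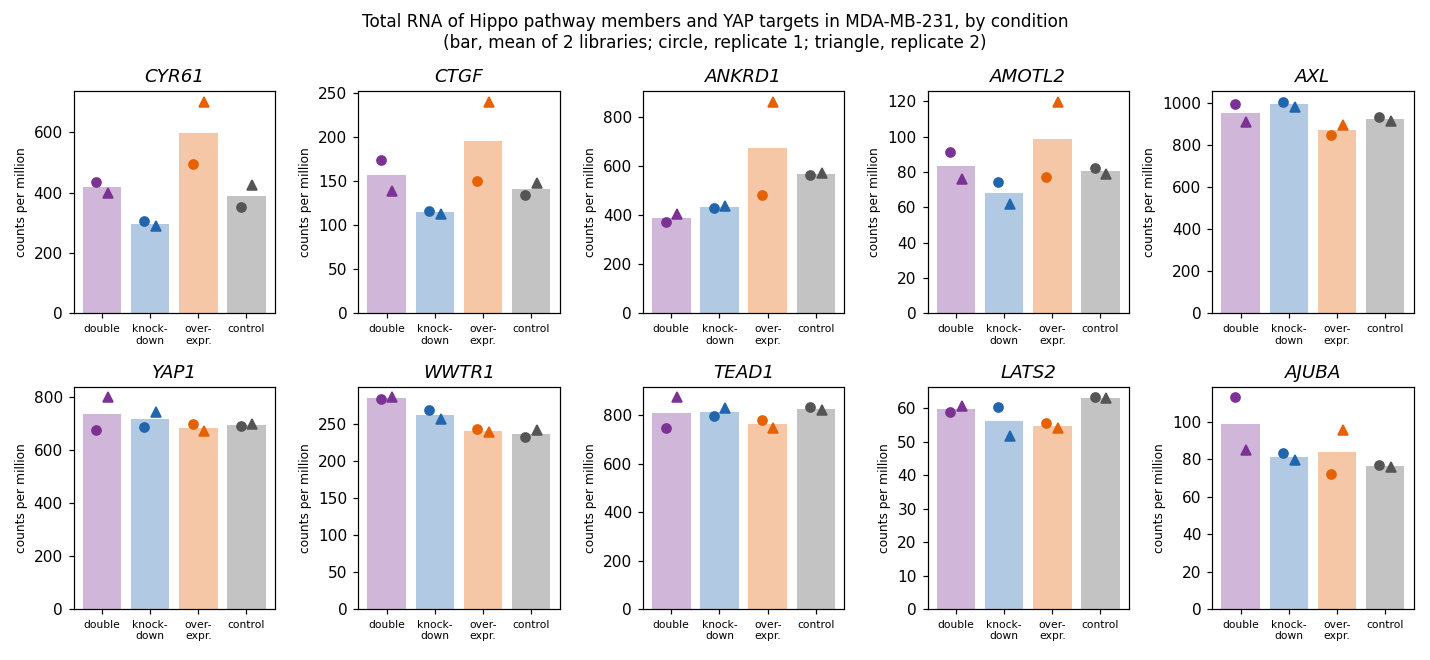
Total RNA levels in CPM (vertical axes, each from 0) of the 10 genes in the 4 conditions, with bars at the mean of 2 libraries, circles for replicate 1 and triangles for replicate 2. CYR61 is lowest in knockdown, at 305 and 289.8 CPM, and in overexpression replicate 2 is above replicate 1 for CYR61, CTGF, ANKRD1 and AMOTL2.

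The second question was whether the tRNA-Ile-UAU construct altered the genes, whichever guide was present. Footprints of CYR61 and CTGF rose with the construct, by a log2 fold change of 0.42 ± 0.08 for CYR61, with an adjusted p of 0.000143, and of 0.44 ± 0.08 for CTGF, with an adjusted p of 0.000269, both by edgeR's quasi-likelihood test. These 2 members were called among 0.43% of all genes, 0.135% as higher and 0.295% as lower, and no member was called lower. At an unadjusted p under 0.05 there were 4 members, against 7.56% of genes. ANKRD1 had 0.20 ± 0.09 and AMOTL2 0.27 ± 0.12, with adjusted p-values of 0.588 and 0.547. Both calls were lost without replicate 2 of overexpression, where the estimates were 0.32 for both genes, with adjusted p-values of 0.244 for CYR61 and 0.310 for CTGF. The CTGF call was also lost without replicate 1 of control, at 0.37 with an adjusted p of 0.0636.

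For CYR61 and CTGF both construct libraries were above both control-construct libraries under each guide, in footprints and again in total RNA. This order was found in 3.55% of genes in footprints, in 2.4% in total RNA and in 17 of 8012 genes, or 0.212%, in both. CYR61 and CTGF were also lower with the tRNA-Ile-GAU guide with each construct in footprints, and so was ANKRD1, as were 6.07% of genes. In total RNA that second order held for CYR61 and ANKRD1 and for 6.99% of genes. Both orders together were met by CYR61 and CTGF in footprints, against 0.516% of genes, and by CYR61 in total RNA, against 0.307%. CYR61 and CTGF had been called for the guide and the construct in these same footprint libraries. Their footprint orders therefore largely restate those calls and are not an independent check.

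In total RNA the construct gave CYR61 a log2 fold change of 0.55 ± 0.11 and CTGF one of 0.46 ± 0.13. Neither was called, and of all 11720 genes 0% were, by edgeR's quasi-likelihood test. At an unadjusted p under 0.05 there were 3 members and 1.96% of genes, and DESeq2 called 1 member among 4 genes. Here too more genes were called with either double-modulation library left out. In those fits that condition kept 1 library and its replicate difference did not enter the spread, so these calls are not read as RNA changes.

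**Figure D3:**
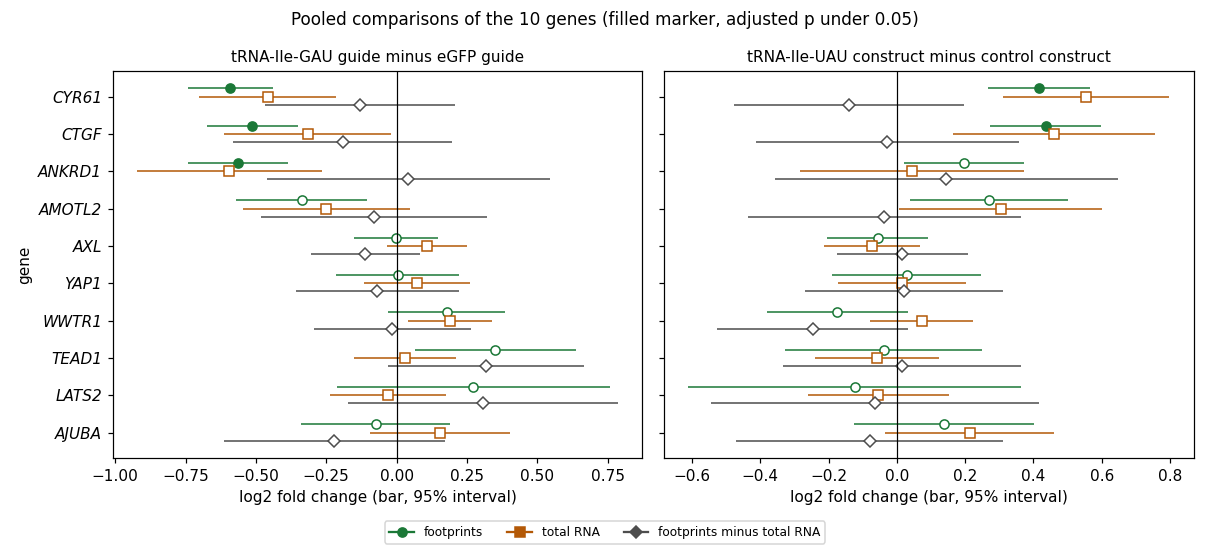
Log2 fold changes (horizontal axes) with 95% intervals for the tRNA-Ile-GAU guide against the eGFP guide (left) and the tRNA-Ile-UAU construct against the control construct (right), in footprints, in total RNA and as their difference. Filled markers passed an adjusted p of 0.05: CYR61, CTGF and ANKRD1 below 0 on the left, CYR61 and CTGF above 0 on the right, all in footprints.

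Taken one condition at a time, the 3 modulated conditions share the same control libraries. In knockdown against control, footprints of CYR61 fell by 0.65 ± 0.11 on the log2 scale, with an adjusted p of 1.03e-05, and those of CTGF by 0.47 ± 0.12, with an adjusted p of 0.0169, both by edgeR's quasi-likelihood test. Called genes made up 1.11% of those tested, 0.651% as lower and 0.454% as higher, against 2 of the 10 members lower and 0 higher. At an unadjusted p under 0.05 there were 5 members, against 9.75% of genes. AMOTL2, at -0.56 ± 0.17, had an adjusted p of 0.0676. Without control replicate 2 both calls were lost, with an adjusted p of 0.0668 for CYR61 and 0.585 for CTGF, and without knockdown replicate 2 CTGF had 0.339. DESeq2 gave CTGF an adjusted p of 0.0746.

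In the double modulation against control, 0 members were called by edgeR's quasi-likelihood test or by DESeq2, where edgeR called 1.93% of genes, and 1 member, ANKRD1, had an unadjusted p under 0.05, as had 11.9% of genes. The log2 fold changes were -0.17 ± 0.11 for CYR61, with a 95% interval from -0.38 to 0.04, -0.08 ± 0.12 for CTGF, from -0.30 to 0.15, and -0.37 ± 0.13 for ANKRD1, with an adjusted p of 0.126. In overexpression against control, 0 members were called by either tool, where edgeR called 0.0246% of genes, and 3 had an unadjusted p under 0.05, as had 5.02% of genes. They were CTGF at 0.48 ± 0.12, CYR61 at 0.36 ± 0.11 and ANKRD1 at 0.43 ± 0.13, with adjusted p-values of 0.121, 0.49 and 0.454. Fitted on the overexpression and control libraries alone, the same 3 members passed, where 8 of 7503 genes (0.107%) did.

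Whether the construct acted differently under the 2 guides was tested as an interaction. No member was called in footprints by edgeR's quasi-likelihood test or by DESeq2, where edgeR called 0.0614% of genes, and 2 members, ANKRD1 and AXL, had an unadjusted p under 0.05, as had 5.83% of genes. The interaction was 0.11 ± 0.15 for CYR61, -0.09 ± 0.16 for CTGF and -0.47 ± 0.18 for ANKRD1, with an adjusted p of 0.665 for ANKRD1. These estimates changed sign when single libraries were left out. In total RNA, 0 members were called in these last 4 comparisons by edgeR or DESeq2, with 0.0256% of genes called by edgeR in knockdown, 0.0683% in the double modulation and 0% in overexpression and in the interaction. These shares moved with the libraries fitted too. They were higher without double-modulation replicate 2, where that condition kept 1 library and its replicate difference did not enter the spread. On the knockdown and control libraries alone 2.14% of genes were called in knockdown, ANKRD1 and CYR61 among them. At an unadjusted p under 0.05 the members numbered 1 in knockdown, where 6.94% of genes did so, 3 in the double modulation, with 7.62% of genes, 2 in overexpression, with 1.99%, and 0 in the interaction, with 2.66%.

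The 2 overexpression libraries of each assay differed in several of these genes. In footprints, replicate 2 exceeded replicate 1 by 0.89 on the log2 scale for ANKRD1, 0.46 for AJUBA, 0.38 for CTGF, 0.35 for CYR61 and 0.32 for AMOTL2. In total RNA the differences were 0.80 for ANKRD1, 0.36 for AJUBA, 0.64 for CTGF, 0.46 for CYR61 and 0.59 for AMOTL2. The other 5 members differed by -0.33 to 0.00 in footprints and by -0.10 to 0.04 in total RNA. Over all genes the central 95% of such differences reached -0.94 and 1.07 in footprints, and -0.65 and 0.96 in total RNA. Each single difference lay within that range, which takes in genes of every count past the filter. ANKRD1 had 201 and 612 footprint reads and 1247 and 3332 total RNA reads in these libraries. A range over genes of like count was not computed, so whether its difference is usual at such counts was not tested. Across 8012 genes the replicate differences of the 2 assays had a correlation of 0.00 in overexpression, a description over genes, which are not independent. The labels do not say that libraries of the same number in the 2 assays came from the same cells.

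**Figure D4:**
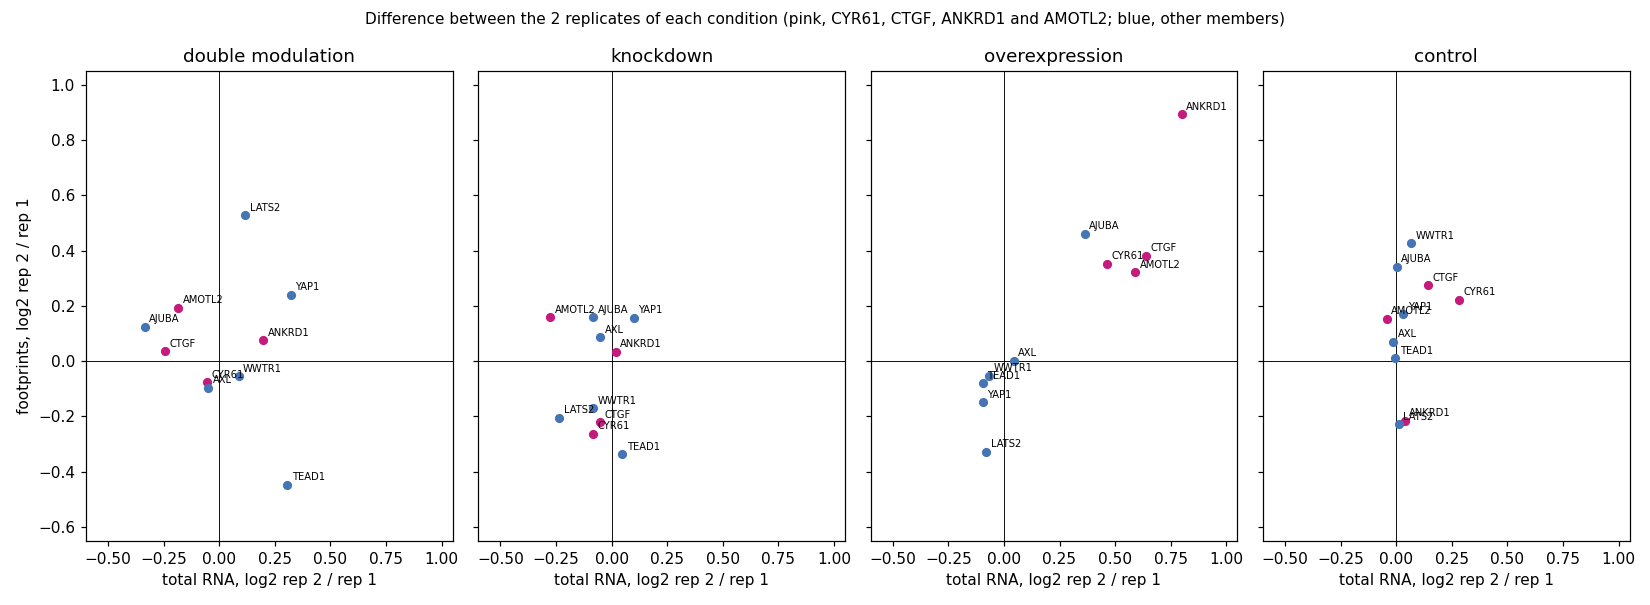
Log2 ratio of replicate 2 to replicate 1 in total RNA (horizontal axis) and footprints (vertical axis) for the 10 genes in each condition, with CYR61, CTGF, ANKRD1 and AMOTL2 in pink and the others in blue. In overexpression ANKRD1, CTGF, CYR61, AMOTL2 and AJUBA lie at the upper right, up to 0.89 in footprints, and the others near or below 0.

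The genes with the footprint pattern most like that of CYR61 and CTGF were looked for among 6913 tested genes with at least 20 CPM on average. Likeness was the root mean square difference of log2 CPM, centred on each gene's mean, over the 8 footprint libraries. For CYR61 the nearest gene was CTGF, at 0.0731, followed by SLC25A13 at 0.133 and SLC35B4 at 0.140, where the median gene was at 0.436. For CTGF the nearest was CYR61, followed by SLC25A13 at 0.0840 and SNX15 at 0.150, where the median was 0.413. SLC25A13 and SLC35B4 lie on chromosome 7, where the median log2 fold change for the guide over 351 genes was -0.38, against 0.02 over 7329 genes placed on other chromosomes. None of the 10 members lies on chromosome 7.

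Footprints per total RNA, the ratio of the 2 CPM values, spanned a wide range among the members. Over all conditions the log2 ratio was lowest for TEAD1, at -3.02 or percentile 1.2 of 8012 genes, and YAP1, at -1.79 or percentile 8.69. LATS2 followed at -0.93, WWTR1 at -0.04, ANKRD1 at 0.23, AXL at 0.36, AJUBA at 0.47 and AMOTL2 at 1.02. The secreted targets CYR61, at 1.72 or percentile 81.2, and CTGF, at 2.33 or percentile 88.7, were highest, where the median gene had 0.15. Values for single conditions ran from -3.31 to -2.77 for TEAD1 and from 2.20 to 2.41 for CTGF, a far smaller range than that between the genes. Counts in the 2 assays cover different parts of an mRNA, and the part that coding length and untranslated length play in these ratios was not tested.

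**Figure D5:**
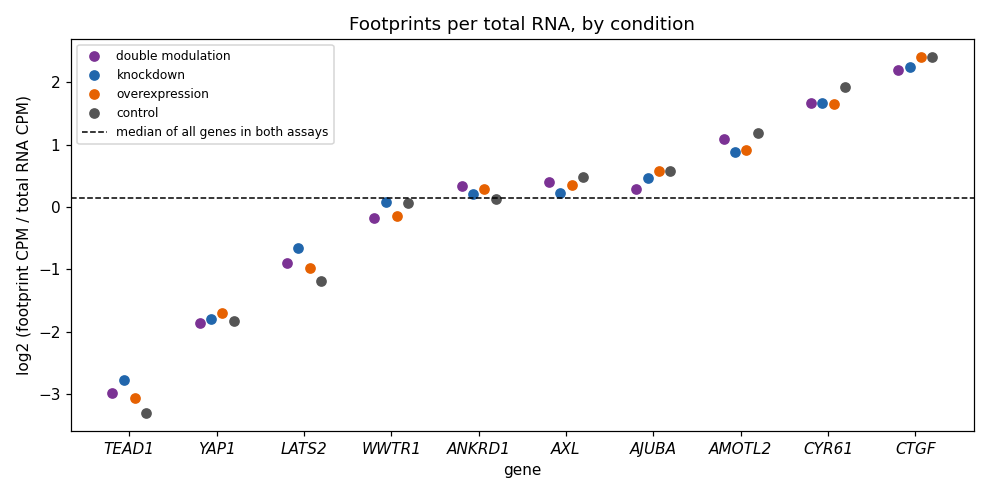
Log2 ratio of footprint CPM to total RNA CPM (vertical axis) for the 10 genes (horizontal axis, in order of the ratio) in each condition, with a dashed line at the median of all genes, 0.15. TEAD1 and YAP1 lie lowest and CYR61 and CTGF highest in every condition.

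Whether footprints changed beyond RNA was tested over all 16 libraries together, as the footprint contrast minus that of total RNA. Across 8012 genes 0% were called in any of the 6 comparisons by edgeR's quasi-likelihood test, and 0 members were called by edgeR or DESeq2. The count over all genes hung on the double-modulation total RNA libraries. With either left out, that condition kept 1 total RNA library and its replicate difference did not enter the spread. Genes were then called in some of the comparisons. Members called in these fits numbered 0. For the guide 4.66% of genes and 0 members had an unadjusted p under 0.05. The guide's difference was -0.13 ± 0.16 for CYR61, with a 95% interval from -0.47 to 0.21, -0.19 ± 0.18 for CTGF, from -0.58 to 0.20, and 0.04 ± 0.24 for ANKRD1, from -0.46 to 0.54. In counts simulated for this comparison, the test recovered 6 of 95 changes of 1.5-fold and 35 of 98 of 2-fold, and it called 4 unchanged genes. The changed genes were drawn at random from all genes tested, so these shares do not give the recovery at the counts of CYR61, CTGF or ANKRD1.

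Further genes of the pathway were taken from 3 lists written from general knowledge. Among 18 tested of 24 upstream regulators, 1 was called higher and 0 lower in footprints for the guide, where 0.688% and 1.99% of all genes were, with a median log2 fold change of 0.01. Unadjusted p-values under 0.05 were found in 5 of the 18, against 13.4% of genes. In 5 of the 18 all 4 libraries with the tRNA-Ile-GAU guide were above all 4 with the eGFP guide, an order that 3.28% of genes had. The called gene was FAT1, a giant protocadherin that acts upstream of Hippo kinases, with 1939 and 1985 CPM in the double modulation, 2404 and 2191 CPM in knockdown, 1825 and 1872 CPM in overexpression, and 1734 and 1687 CPM in control cells. The guides did not overlap, and the log2 fold change was 0.24 ± 0.07 with an adjusted p of 0.0345, and 0.41 ± 0.10 with 0.0110 in knockdown against control, by edgeR's quasi-likelihood test. The guide's call was lost without knockdown replicate 1, either overexpression library or either control library, with adjusted p-values of up to 0.180, and the knockdown call without knockdown replicate 1 or either control library, with up to 0.275. The other 4 that did not overlap were named for that order after their values were seen, and none was called. MAP4K4, a kinase that can act on LATS kinases, had 210 to 239 CPM with the tRNA-Ile-GAU guide and 140 to 193 CPM with the eGFP guide, with an adjusted p of 0.0554 by edgeR's quasi-likelihood test. FRMD6, a FERM-domain protein upstream of the kinases, had 303 to 350 CPM and 243 to 271 CPM, with an adjusted p of 0.0659 by that test. LATS1 had 37.5 to 47.1 CPM and 22.3 to 36.2 CPM, and AMOTL1, an angiomotin relative, 108 to 120 CPM and 72.4 to 99.0 CPM, with adjusted p-values of 0.364 and 0.184 by that test. Total RNA of MAP4K4 did not overlap either, at 1179 to 1256 CPM with the tRNA-Ile-GAU guide and 947 to 1067 CPM with the eGFP guide. That order was found in 3.37% of genes. STRN3, another of the upstream regulators, went the other way in total RNA, at 89.8 to 115 CPM and 117 to 124 CPM, an order of 5.33% of genes. Total RNA of FAT1, FRMD6, LATS1 and AMOTL1 overlapped, and 0 of 21 regulators tested in total RNA were called for the guide. Among 6 tested of 8 TEAD relatives and cofactors none was called, with a median of -0.05.

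Of 16 further YAP or TAZ targets, 14 were tested, and 2 were called lower and 0 higher for the guide in footprints, where 1.99% and 0.688% of all genes were, and their median log2 fold change was -0.09. NT5E, which encodes the surface enzyme CD73, had 1255 and 1095 CPM in the double modulation, 1300.3 and 1298 CPM in knockdown, 1610.2 and 1413 CPM in overexpression, and 1658 and 1292 CPM in control cells. Its log2 fold change was -0.28 ± 0.08 with an adjusted p of 0.0154 by edgeR's quasi-likelihood test, 0.361 without control replicate 1, 0.194 without overexpression replicate 1, 0.0501 without double-modulation replicate 2 and 0.104 with DESeq2. These NT5E levels are footprints, in which the guides overlapped. Its total RNA did not overlap, at 817 to 853 CPM with the tRNA-Ile-GAU guide and 986 to 1097 CPM with the eGFP guide. That order was held by 5.33% of genes, and NT5E was not called in total RNA. IGFBP3, which encodes a secreted binding protein of insulin-like growth factors, had footprints of 57.5 and 51.6 CPM in the double modulation, 53.0 and 42.3 CPM in knockdown, 94.9 and 53.1 CPM in overexpression, and 80.6 and 82.5 CPM in control cells. Its log2 fold change was -0.57 ± 0.17 with an adjusted p of 0.0464 by edgeR's quasi-likelihood test, and 0.513 with DESeq2. The call was lost without any 1 of 6 libraries, all but knockdown replicate 1 and overexpression replicate 2, with an adjusted p of up to 0.485, and the gene lies on chromosome 7. The other 12 targets tested were not called for the guide. For the construct 0 of these 14 targets were called in either assay, where 0.43% of all genes were in footprints and 0% in total RNA. A count of 0 is therefore near the share over all genes. In footprints 10 of the 14 were lower with the construct, with a median of -0.08, against 4091 of 8143 genes. In total RNA 9 of the 14 were lower, with a median of -0.06, against 5313 of 11720 genes.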

How the data were processed

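The deposited files hold the authors' raw read counts per gene symbol for 16 libraries, from cutadapt 1.17, STAR 2.5.2a and HTSeq on hg38 per the submitters' processing notes. The order, settings, annotation and strand use are not given in the sources used here. The HTSeq summary lines were left out of the tests. Reads on genes made up 0.843 to 2.25% of everything HTSeq saw in footprints and 0.690 to 1.00% in total RNA, and alignments to several places 97.0 to 98.8% and 97.2 to 98.1%. A gene missing from a footprint file was given 0 counts. CPM were counts divided by the library's counts on genes.

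Low genes were removed with filterByExpr (at a minimum count of 10 and a minimum total of 15), libraries were scaled by TMM, and genes were tested with the quasi-likelihood test of edgeR 4.0.16 in R 4.3.3 on group means of all libraries of an assay, with Benjamini-Hochberg adjustment over all genes tested. A ± beside a log2 fold change is its standard error. The fit of each assay left 4 residual degrees of freedom, and the test moderates a gene's spread towards that of all genes. Translational efficiency was the difference of the footprint and total RNA contrasts in 1 fit. The biological coefficient of variation of that fit was 12.5%. In counts simulated for the guide comparison, the footprint test recovered 45 of 95 changes of 1.5-fold and 78 of 99 of 2-fold, and the total RNA test 39 and 69 of 99, none with the wrong sign. Unchanged genes called numbered 2 in footprints and 9 in total RNA.

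Alternatives were DESeq2 1.42.0, its size factors in edgeR, no filter, only the groups compared, thinning of footprints to the shallowest library, a replicate block and leaving out each library. The members, the lists and the rule for named genes (all members, every called gene of the other lists and the 3 genes most like CYR61 and CTGF) were chosen with earlier results of these data known. Promoter sequences are RefSeq's on GRCh38.p14, where 8 members had an entry. Positions are from the RefSeq gene table of the same assembly.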

Additional observations from a re-analysis of the deposited data

Results flagged for a closer look

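For each member, assay and guide, the 4 libraries were examined for 1 value far from the other 3, by Dixon's ratio of the gap to the range at its 95% critical value. Of 40 such groups 4 held one. The chance share of about 1 in 20 is for 4 values from 1 population, while each group here mixed the 2 constructs. WWTR1 footprints with the eGFP guide had 280.5 CPM in control replicate 2. CTGF total RNA with the eGFP guide had 240.0 CPM in overexpression replicate 2, and AMOTL2 total RNA 119.7 CPM in the same library. AJUBA total RNA with the tRNA-Ile-GAU guide had 113 CPM in double-modulation replicate 1.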

How the results depend on the processing

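With 2 libraries per condition and 11 to 1260 footprint reads per member and library, single libraries decided several calls, and the cause was not tested for any of the changes below. A fit without 1 library leaves its condition with 1, which adds nothing to the estimate of spread. The number of members called in knockdown against control in footprints, 2, was 1 with DESeq2 (0.159% of all genes) and 1 after thinning (0.540%). That in overexpression against control in footprints, 0, was 3 with only the groups compared (0.107%). In total RNA, where 0 members were called, DESeq2 called 1 for the construct (0.0217%) and 1 for the guide (0.870%). No filter on low counts gave 2 for the construct (0.0598%), 1 for the double modulation (1.01%), 3 for the guide (2.64%) and 1 for overexpression (0.0272%), and only the groups compared gave 2 for knockdown (2.14%). With each library left out in turn, the number called in footprints ran from 2 to 3 for the guide (1.42 to 2.5% of all genes), 0 to 3 for the construct (0.0810 to 0.641%), 0 to 3 for knockdown (0.209 to 1.30%), 0 to 2 for overexpression (0 to 0.0583%) and 0 to 1 for the interaction (0 to 0.116%). In total RNA it ran from 0 to 3 for the guide (0.0488 to 15.5%), 0 to 2 for the construct (0 to 1.29%), 0 to 2 for the double modulation (0 to 15.8%) and 0 to 1 for overexpression (0 to 0.0429%). Correlations of same-numbered deviations between conditions ran from -0.04 to 0.06 in footprints and, with both signs, from -0.42 to 0.36 in total RNA. They gave no pairing by replicate number. Some conditions did share a part of their replicate differences in total RNA, and its source was not tested. With a replicate block, 3 members were called in footprints for the guide (3.24%), 2 for the construct (0.589%), 3 for knockdown (1.34%), 1 for overexpression (0.0491%) and 0 for the double modulation and the interaction. For the guide, estimates near 0 turned sign under 4 of 13 alternatives in footprints for YAP1 and for AXL, 2 of 13 for AJUBA, and 1 of 12 in total RNA for YAP1, TEAD1 and LATS2. Those of CYR61, CTGF and ANKRD1 that turned sign did so when single libraries were left out, with these lowest and highest values. ANKRD1 ran from -0.082 to 0.37 for the construct, -0.82 to 0.083 for the interaction and -0.12 to 0.78 for overexpression in footprints, and from -0.19 to 0.21, -0.77 to 0.026 and -0.20 to 0.60 in total RNA, turning without overexpression replicate 2 and, for the construct in total RNA, also without double-modulation replicate 2. CTGF ran from -0.21 to 0.069 for the double modulation in footprints, -0.26 to 0.13 for the interaction in footprints and -0.33 to 0.31 for it in total RNA. CYR61 ran from -0.050 to 0.31 for the interaction in footprints, -0.037 to 0.24 for the double modulation in total RNA and -0.37 to 0.092 for the interaction in total RNA. The alternatives for FAT1, NT5E and IGFBP3 were added after seeing the data.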
